A study of Mus musculus with 7 samples.

Results

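The organic ion and drug transporters described here are the Slc22a, Slco, Slc47a, Abcc, Abcb and Abcg gene families, read in whole kidneys of male mice. Members were taken by name: every protein-coding gene of the deposited scaled table whose symbol starts with 1 of these 6 family names followed by a digit. This gave 56 genes, against 14964 protein-coding genes of that table and 48709 Ensembl genes of the raw count table. Of the 56, 24 belong to Slc22a, 9 to Slco, 2 to Slc47a, 9 to Abcc, 8 to Abcb and 4 to Abcg. The choice used no expression difference, only the symbol and a place in the deposited table.

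Kidneys came from 3 wild-type males (WT, replicates 1, 2 and 4) and 4 males with a double knockout of Hs3st3a1 and Hs3st3b1 (DKO, replicates 1 to 4). Both genes encode heparan sulfate 3-O-sulfotransferases, and the title of the study concerns kidney size and the glomerulus. Every library carries its own animal number in the labels, all animals were male, and the labels give no age, strain background or treatment. The knockout is named without a driver or a cell type, so no cell type can be set apart by the genotype.

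Proximal tubule cells take organic anions and cations up from blood across their basolateral membrane and pass them into urine across the apical membrane. Uptake from blood runs largely through the organic anion transporters (OAT) and organic cation transporters (OCT) of the SLC22 family. Export into urine uses proton-coupled cation extruders (MATE, the Slc47a genes) and ATP-driven pumps of the ABC families, among them multidrug resistance-associated proteins (MRP, Abcc), P-glycoprotein (Abcb1a and Abcb1b in rodents) and the breast cancer resistance protein (Abcg2). The organic anion transporting polypeptides (OATP, the Slco genes) carry larger amphipathic anions such as steroid conjugates, bile acids, thyroid hormones and prostaglandins.

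Libraries held between 18330929 and 24259400 counts, and from 0.501% to 0.7002% of a library's counts fell on the members. Levels are given as CPM, the read count scaled to library size with trimmed-mean (TMM) factors, and differences as the log2 fold change of DKO against WT with its standard error (SE). Hs3st3a1 had 29, 13 and 12 reads in the WT libraries and 1, 0, 0 and 3 in the DKO libraries. Hs3st3b1 had 56, 90 and 112 reads in WT and 33, 106, 65 and 108 in DKO, so its reads do not separate the groups, and the part of that gene the allele removes is not stated in the sources used here. Defining markers of kidney were present throughout: Slc34a1, the main renal phosphate carrier, lay between 2979 and 5001 CPM in the 7 libraries. In whole tissue, fewer cells of a type and less RNA per cell cannot be told apart.

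Promoter sequences are shown for the members on which the results below turn most. They are the 250 bases before the start of the RefSeq transcript on GRCm38.p6, read 5′ to 3′ on the gene's own strand, which is the minus strand in all 4. Abcc4, the member with the smallest p, has chr14:118706220-118706469, and Slco1a1, with the largest fitted difference downward, has chr6:141946963-141947212. In these the capitals mark a match to 1 of 4 short motifs searched on both strands. Slc22a28 has chr19:8131983-8132232 and Slc22a30 has chr19:8405106-8405355, and in this pair the capitals mark the bases at which the aligned sequences differ.
Abcc4: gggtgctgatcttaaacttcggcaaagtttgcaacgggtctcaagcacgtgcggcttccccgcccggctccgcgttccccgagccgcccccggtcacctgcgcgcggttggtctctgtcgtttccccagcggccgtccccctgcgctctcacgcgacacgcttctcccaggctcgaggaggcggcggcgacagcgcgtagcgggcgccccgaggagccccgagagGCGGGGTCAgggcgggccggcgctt
Slco1a1: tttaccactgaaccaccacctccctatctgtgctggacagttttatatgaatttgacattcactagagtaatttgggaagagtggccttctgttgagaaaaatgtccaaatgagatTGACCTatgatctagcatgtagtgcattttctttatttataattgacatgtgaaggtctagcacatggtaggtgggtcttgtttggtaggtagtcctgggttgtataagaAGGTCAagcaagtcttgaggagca
Slc22a28: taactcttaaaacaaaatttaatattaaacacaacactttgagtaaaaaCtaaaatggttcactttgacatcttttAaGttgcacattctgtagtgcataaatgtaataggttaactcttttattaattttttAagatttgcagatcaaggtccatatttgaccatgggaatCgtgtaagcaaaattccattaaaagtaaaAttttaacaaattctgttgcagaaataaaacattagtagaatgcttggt
Slc22a30: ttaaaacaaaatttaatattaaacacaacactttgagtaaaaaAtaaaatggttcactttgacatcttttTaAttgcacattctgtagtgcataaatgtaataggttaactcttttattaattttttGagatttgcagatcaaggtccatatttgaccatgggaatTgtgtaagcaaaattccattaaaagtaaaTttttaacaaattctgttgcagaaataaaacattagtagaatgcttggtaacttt

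The motifs were AGAACA (an element bound by steroid receptors), AGGTCA (the element of many nuclear receptors), GTTAAT (part of the hepatocyte nuclear factor 1 site) and TGACNNNGC (the antioxidant response element). They occur in the same 250 bases of 16.1%, 14%, 6.43% and 10.2% of 32851 RefSeq promoters. Among the 43 members with a promoter entry they occur in 6, 7, 4 and 4, which is 14%, 16.3%, 9.3% and 9.3%, near the shares over all promoters. Slco1a1 holds AGGTCA at positions -24 to -19 and, on the reverse strand, at -134 to -129, counted from the transcript start. Abcc4 holds TGACNNNGC on the reverse strand, printed as GCGGGGTCA, at -25 to -17. The windows of Slc22a28 and Slc22a30 hold none of the 4. These upstream sequences match at 238 of 244 aligned bases (97.5%), differ at 6 and align with 0 gaps. A match is a description of letters and is not a measured binding site.

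Of the 56 members, 49 passed the filter on low counts and were tested. No member passed an edgeR quasi-likelihood adjusted p under 0.05 over 15394 genes, and no gene of the whole table did (0% called). The smallest adjusted p of a member was 0.163. At an unadjusted p under 0.05, 11 of the 49 were higher in DKO and 4 were lower, 15 in all. Over all 15394 genes these shares were 9.86%, 11.3% and 21.1%, so the higher members were more frequent than the background and the lower ones were near it. The 11 higher members were Abcc2, Abcc3, Abcc4, Abcc5, Abcb1a, Abcg1, Slc22a8, Slc22a14, Slco2a1, Slco2b1 and Slco4a1. The 4 lower members were Slc22a22, Slc22a28, Slc22a30 and Slco1a4. The higher count was 8 without WT replicate 1 (background 7.54%), 16 without WT replicate 2 (10.3%), 7 without WT replicate 4 (5.63%), 8 without DKO replicate 3 (6.95%) and 14 without DKO replicate 4 (9.05%). Removing a trend with gene length and GC content left 7 (background 6.14%). The lower count was 2 without WT replicate 1 (11.2%), 1 without WT replicate 4 (4.45%), 2 without DKO replicate 1 (12.5%) and 2 with the trend removed (9.91%).

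By DESeq2 3 members passed an adjusted p under 0.05, all higher in DKO: Abcc4 (adjusted p = 0.00268), Slc22a14 (0.0245) and Slco4a1 (0.0465). DESeq2 called 1.6% of its 13652 genes higher and 2.74% lower, 4.34% in all, and it gave 9 of the 56 members no adjusted p. By edgeR with no low-count filter only Abcc4 of the members passed (adjusted p = 0.0116), against 0.241% of all genes. By limma-voom none did.

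Fitted differences were positive in 34 of the 49 tested members and negative in 15, while 53.2% of all tested genes were positive. The median log2 fold change was 0.24 over the members and 0.04 over all genes. With the length and GC trend removed these medians were 0.15 and -0.01. The 11 higher members have a median exon length of 5958 bases and the 4 lower members 2904, against 4799 for the tested members and 4008 for all tested genes. The part of exon length in these differences was tested only through that alternative.

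The libraries differed among themselves within each group. WT replicate 2 was the highest WT library in 33 of the 49 tested members and WT replicate 4 the lowest in 27. DKO replicate 4 was the lowest DKO library in 22 of the 49 and in 7 of the 11 higher members. DKO replicate 3 was the highest DKO library in 17 of the 49 and in 9 of the 11. A choice of members by their higher DKO mean favours high DKO libraries, so the last counts describe the members only. DKO replicate 3 was also the highest of all 7 libraries in 7 of 8 liver cell genes, and the lowest for the most abundant of them. Their values stand with the other cell markers.

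**Figure D1:**
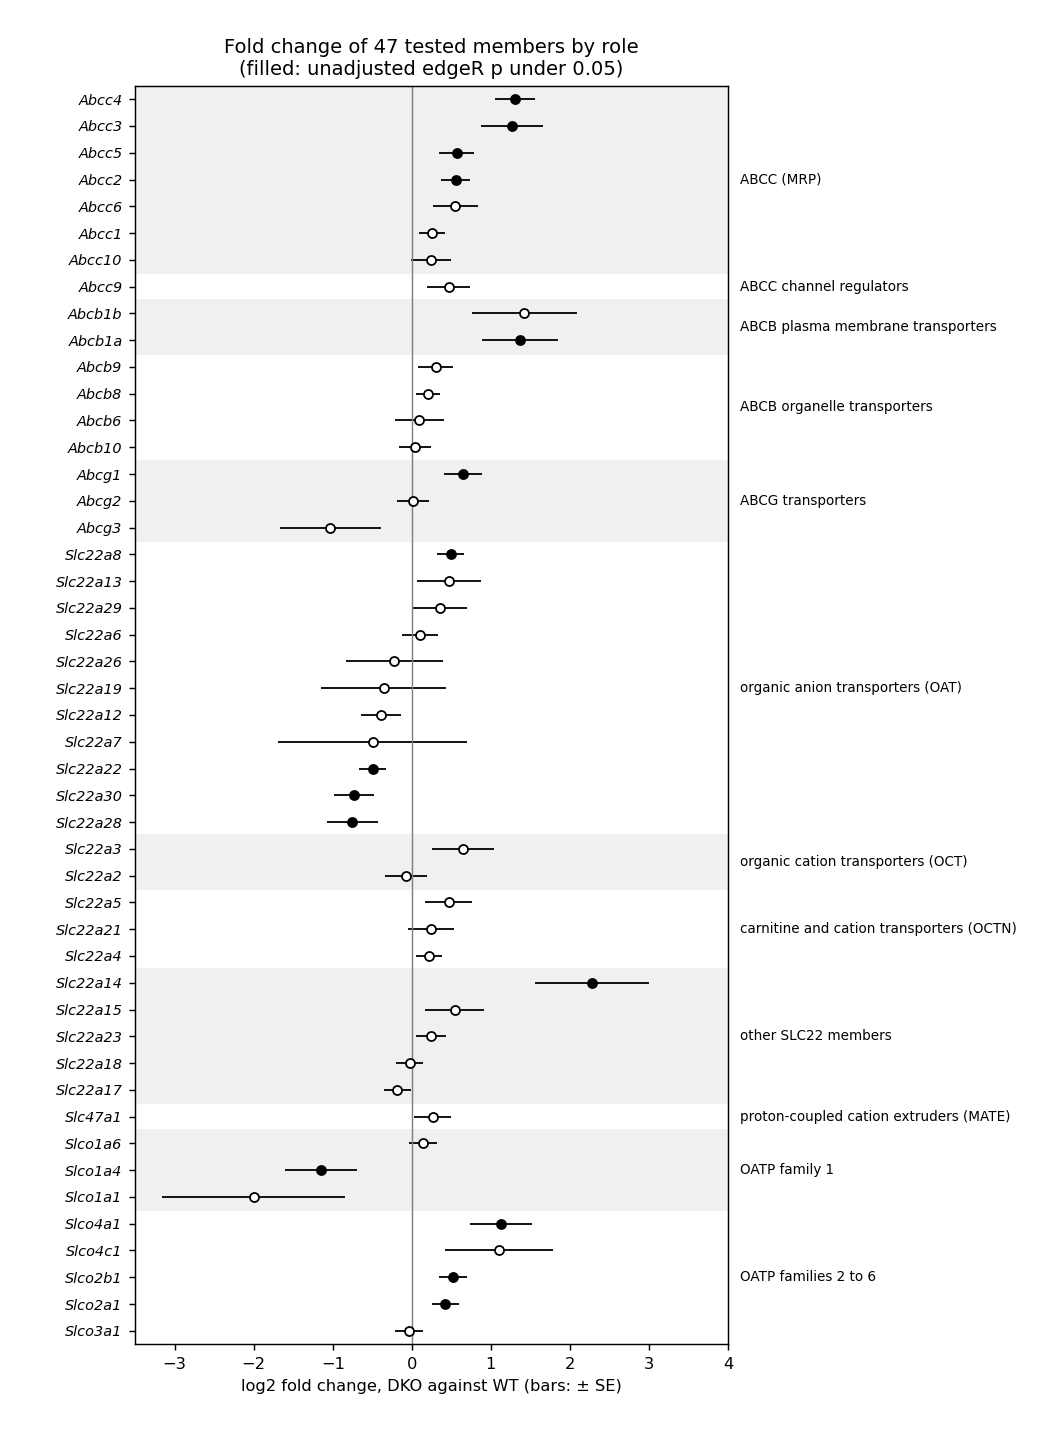
Log2 fold change of DKO against WT for 47 tested members (x axis, bars show the SE), grouped by role on the y axis, with filled points for an unadjusted edgeR p under 0.05. All 7 MRP members lie above 0, whereas 7 of the 11 organic anion transporters lie below 0.

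All 7 MRP pumps had fitted differences above 0, as did 53.2% of all genes, with a median log2 fold change of 0.55. Of the 7, 4 were higher in DKO at an unadjusted p under 0.05 (9.86% of all genes). This count was between 3 and 5 when 1 library was left out (background 5.63% to 12.5%). It was 2 with the length and GC trend removed (6.14%), when 6 of the 7 stayed above 0.

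Abcc4 (ENSMUSG00000032849, chromosome 14, 118482692 to 118706219 on GRCm38, 33 merged exons) encodes MRP4, an apical pump for organic anions, urate and cyclic nucleotides. Its level was 16.8, 17.5 and 10.9 CPM in WT replicates 1, 2 and 4 and 40.1, 40.3, 46.1 and 23.0 CPM in DKO replicates 1 to 4. Every DKO library lay above every WT library, with DKO replicate 4 closest to WT. The means were 15.1 ± 3.63 CPM (SD, n = 3) and 37.4 ± 10.01 CPM (SD, n = 4), and the log2 fold change was 1.31 (SE 0.26, edgeR adjusted p = 0.163). Without each library in turn the unadjusted p in edgeR's fit across all genes lay between 2.84e-05 and 0.00194, and the difference was smallest without WT replicate 4.

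Abcc3 (ENSMUSG00000020865, chromosome 11, 94343295 to 94392997) encodes MRP3, a basolateral exporter of glucuronide conjugates. Its level was low, at 1.76, 1.53 and 1.18 CPM in WT and 4.09, 3.62, 5.12 and 1.55 CPM in DKO. In 3 DKO kidneys it was above all WT kidneys, whereas DKO replicate 4 lay among them. Its log2 fold change was 1.26 (SE 0.39, edgeR adjusted p = 0.163). Abcc2 (ENSMUSG00000025194, chromosome 19, 43782192 to 43840740) encodes MRP2, an apical pump for conjugates. Readings were 58.3, 65.7 and 52.0 CPM in WT and 83.2, 88.8, 107 and 65.6 CPM in DKO, so that DKO replicate 4 lay just under WT replicate 2. The log2 fold change of Abcc2 was 0.55 (SE 0.18, edgeR adjusted p = 0.164), and 0.35 with the length and GC trend removed (unadjusted p = 0.0745).

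Abcc5 (ENSMUSG00000022822, chromosome 16, 20331303 to 20426394) encodes MRP5, an exporter of cyclic nucleotides and other organic anions, and was the Abcc member with the most reads. It had 175, 131 and 161 CPM in WT and 154, 264, 285 and 218 CPM in DKO. Here DKO replicate 1 lay inside the WT range and the other 3 above it. That is a log2 fold change of 0.57 (SE 0.22, edgeR adjusted p = 0.194). Its unadjusted p of 0.0258 in edgeR's fit across all genes was 0.104 without WT replicate 2, 0.0648 without DKO replicate 2 and 0.0711 without DKO replicate 3. Removing the length and GC trend lowered the difference to 0.27 (unadjusted p = 0.192). Abcc5 has 10681 bases of exon.

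The other 3 MRP members were chosen for mention after their values were seen. Abcc6, the gene of pseudoxanthoma elasticum, had a mean of 7.21 ± 2.98 CPM in WT (SD, n = 3) against 10.5 ± 1.92 in DKO (n = 4), a log2 fold change of 0.55 (SE 0.28). Abcc1 (MRP1) and Abcc10 had log2 fold changes of 0.25 and 0.24. Their WT and DKO libraries overlapped. The sulfonylurea receptors of potassium channels share the Abcc name without being drug pumps. Of these Abcc9 had a log2 fold change of 0.47 (SE 0.28), and Abcc8 was too low to test, with 35 reads in all libraries together.

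P-glycoprotein is encoded by a pair of adjacent genes in the mouse, and both had a higher DKO mean. Abcb1a (ENSMUSG00000040584, chromosome 5, 8660077 to 8748575) had 1.35, 2.59 and 1.09 CPM in WT and 4.04, 4.41, 7.27 and 1.67 CPM in DKO. Its neighbour Abcb1b (ENSMUSG00000028970, 8798147 to 8866315) was more abundant per length (1.06 against 0.306 CPM per kb in WT), with 5.13, 14.1 and 6.14 CPM in WT and 38.2, 15.6, 30.8 and 5.95 CPM in DKO. For both genes DKO replicate 4 lay inside the WT range and WT replicate 2 was the highest WT library.

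The log2 fold change was 1.37 (SE 0.48, edgeR adjusted p = 0.173) for Abcb1a and 1.42 (SE 0.66, edgeR adjusted p = 0.265) for Abcb1b. Abcb1a had an unadjusted p of 0.0160 in edgeR's fit across all genes, 0.0595 without WT replicate 1 and 0.0740 without WT replicate 4. Abcb1b had 0.0663 with all libraries, 0.0323 without WT replicate 2 and 0.00363 without DKO replicate 4. These genes share a stretch of 177 bases at 98.9% identity, so a few reads could be assigned to either. Their sum was 6.48, 16.7 and 7.23 CPM in WT and 42.3, 19.99, 38.04 and 7.62 CPM in DKO, a ratio of means of 2.67. The ratio of Abcb1a to Abcb1b was 0.208 ± 0.0475 in WT (SD, n = 3) and 0.226 ± 0.0833 in DKO (SD, n = 4). Abcb4, the phosphatidylcholine translocator next to them, was below the filter with 29 reads in 7 libraries. Its DKO libraries (0.204 to 0.396 CPM) lay above the WT ones (0 to 0.156 CPM).

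The 5 Abcb members of organelles had small fitted differences, with a median log2 fold change of 0.20 and none at an unadjusted p under 0.05. Abcb8, a mitochondrial transporter and the Abcb member with the most reads, had 62.3, 68.1 and 55.2 CPM in WT and 67.5, 84.6, 63.0 and 69.7 CPM in DKO. These ranges overlapped, and the log2 fold change was 0.20 (SE 0.16). Abcb10, Abcb6 and the lysosomal peptide carrier Abcb9, named after their values were seen, had log2 fold changes between 0.04 and 0.30. Exons of Abcb6 and the gene model Gm29253 overlap on the same strand over 2932 bases, so its counts are uncertain.

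Of the 3 tested Abcg members, only Abcg1 had an unadjusted p under 0.05 with all libraries. Abcg1 (ENSMUSG00000024030, chromosome 17, 31057675 to 31117988), a cellular cholesterol exporter, had 132, 97.0 and 74.4 CPM in WT and 141, 134, 220.4 and 141 CPM in DKO. The groups did not overlap, although WT replicate 1 and DKO replicate 2 were close, and DKO replicate 3 stood well above the rest. On the log2 scale the difference was 0.65 (SE 0.24, edgeR adjusted p = 0.180). The unadjusted p of Abcg1 was above 0.05 without WT replicate 2, WT replicate 4 or DKO replicate 3 (0.0563, 0.0793 and 0.0558 in edgeR's fit across all genes).

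Abcg2 (ENSMUSG00000029802, chromosome 6, 58584523 to 58695676), the apical pump for urate and many drugs, had 762, 1109.8 and 727 CPM in WT and 1055, 889, 770.3 and 782 CPM in DKO. It had 106 CPM per kb in WT, against 14.6 for Abcc5, the next ABC transporter, and its groups overlapped throughout. The log2 fold change of 0.01 (SE 0.21) turned negative by DESeq2, with RLE size factors and with the length and GC trend removed. An equal level is not shown by these data. Abcg3, a rodent gene close to Abcg2, had 0.467, 0.423 and 2.36 CPM in WT and 0.285 to 0.840 CPM in DKO. Its log2 fold change was -1.03 with all libraries and 0.25 without WT replicate 4. Abcg5, which forms the sterol exporter with Abcg8, was not tested, with 38 reads in 7 libraries.

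The uptake side was led by the OAT genes, and their directions were mixed. Of 11 tested OAT members 1 was higher and 3 were lower at an unadjusted p under 0.05, 4 were fitted above 0 and 7 below, and the median log2 fold change was -0.35. Over all genes 9.86% were higher and 11.3% lower. The lower count was 1 without WT replicate 4 (background 4.45%) and 1 with the length and GC trend removed (9.91%). It was 2 without WT replicate 1 (11.2%), WT replicate 2 (12.6%), DKO replicate 1 (12.5%), DKO replicate 2 (7%) or DKO replicate 3 (7.52%).

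Slc22a6 and Slc22a8 encode OAT1 and OAT3, the main basolateral uptake carriers for drugs and uremic toxins, and lie side by side on chromosome 19. Slc22a8 (ENSMUSG00000063796, 8591254 to 8611835) had 174, 198 and 154 CPM in WT and 259, 215, 279.7 and 233 CPM in DKO. All 4 DKO libraries lay above all 3 WT libraries. The means were 176 ± 22.1 CPM (SD, n = 3) and 247 ± 28.5 CPM (SD, n = 4), with a log2 fold change of 0.49 (SE 0.17, edgeR adjusted p = 0.166). Without any 1 library its unadjusted p stayed between 0.0113 and 0.0423 in edgeR's fit across all genes. With the replicate block no OAT member, Slc22a8 included, was higher at an unadjusted p under 0.05. Slc22a6 (ENSMUSG00000024650, 8618039 to 8628299) was more abundant per length (183 against 44.9 CPM per kb in WT) and its groups overlapped, with 727 ± 149.8 CPM in WT (SD, n = 3), against 783 ± 193 in DKO (n = 4). The log2 fold change of Slc22a6 was 0.11 (SE 0.22), and -0.06 without DKO replicate 4. Whether OAT3 and OAT1 transcripts differ in their response was not tested.

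Slc22a22 (ENSMUSG00000022366, chromosome 15, 57243767 to 57477625) encodes a kidney carrier specific for prostaglandins. It had 76.2, 91.5 and 116 CPM in WT and 61.6, 67.8, 71.5 and 67.3 CPM in DKO. Every DKO library was below every WT library, and the DKO values lay close together. The log2 fold change was -0.50 (SE 0.17, edgeR adjusted p = 0.164). It was -0.32 without WT replicate 4 (unadjusted p = 0.0547) and -0.29 with the length and GC trend removed (unadjusted p = 0.0751).

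Slc22a30 (ENSMUSG00000052562, chromosome 19, 8335371 to 8405111) and Slc22a28 (ENSMUSG00000063590, 8062209 to 8131982) are rodent OAT genes, both on the minus strand. Slc22a30 had 35.4, 45.9 and 43.6 CPM in WT and 24.1, 27.2, 14.2 and 34.9 CPM in DKO. All DKO libraries lay below all WT libraries, with DKO replicate 4 close to WT replicate 1. Slc22a28 had 53.6, 52.4 and 62.3 CPM in WT and 23.3, 35.3, 18.7 and 55.6 CPM in DKO, and here DKO replicate 4 lay within the WT range. On the log2 scale the difference was -0.73 (SE 0.25, edgeR adjusted p = 0.170) for Slc22a30 and -0.75 (SE 0.32, edgeR adjusted p = 0.221) for Slc22a28. The unadjusted p of Slc22a28 was 0.0416 with all libraries in edgeR's fit across all genes. It was 0.000689 without DKO replicate 4 and between 0.0618 and 0.132 without any 1 of the other 6.

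Transcripts of Slc22a28 and Slc22a30 align over 2005 positions at 98.8% identity, against 2004 bases of exon in Slc22a28, so the split of reads between them is uncertain. The sum of both does not depend on how counted reads were split between them. The read counter is not stated, so whether reads matching both genes were counted is unknown. The sum was 88.9, 98.3 and 106 CPM in WT and 47.4, 62.5, 32.9 and 90.4 CPM in DKO, a ratio of means of 0.597. With the sum, DKO replicate 4 lay above WT replicate 1 and the groups overlapped. The ratio of Slc22a28 to Slc22a30 was 1.36 ± 0.195 in WT (SD, n = 3) and 1.29 ± 0.256 in DKO (SD, n = 4). Their upstream sequences, printed above, differ at 6 of the aligned bases.

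Slc22a7 (ENSMUSG00000067144, chromosome 17, 46432183 to 46438457) encodes OAT2, a carrier of nucleotides, creatinine and urate. Its level varied widely inside both groups, with 51.7, 150.2 and 44.6 CPM in WT and 24.8, 110.2, 1.74 and 96.5 CPM in DKO. DKO replicate 3 was far below every other library. The DKO library with 24.8 CPM also lay below every WT library, whereas those with 110.2 and 96.5 CPM lay within the WT range. Its log2 fold change was -0.49 (SE 1.197, edgeR adjusted p = 0.840) and turned to 0.27 without WT replicate 2.

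The other tested OAT genes were looked at after their values were seen. Slc22a12, the urate reabsorber URAT1, had 321 ± 48.9 CPM in WT (SD, n = 3), against 245 ± 75.0 in DKO (n = 4), where DKO replicate 3 was the lowest at 139 CPM. Exons of Nrxn2 overlap it on the opposite strand over 682 bases, and these libraries do not mark the strand. Slc22a13 (OAT10, a nicotinate and urate exchanger) had 40.9 ± 26.9 CPM in WT (SD, n = 3), against 56.6 ± 16.7 in DKO (n = 4). The rodent genes Slc22a19, Slc22a26 and Slc22a29 had log2 fold changes of -0.35, -0.22 and 0.35, each within its SE or close to it. Slc22a27 was not tested, with 27 reads in 7 libraries.

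Position groups many of these genes. Joining members less than 500 kb apart, 31 of the 56 fall into 9 clusters. The cluster with the most members holds 8 Slc22a genes on chromosome 19, from 7673061 to 8628299 on GRCm38: Slc22a19, Slc22a26, Slc22a27, Slc22a28, Slc22a29, Slc22a30, Slc22a8 and Slc22a6. Neighbours in it did not move as 1 block: Slc22a28 and Slc22a30 were lower in DKO at an unadjusted p under 0.05, whereas Slc22a8 was higher. Slc22a6, at the far end beyond Slc22a8, had overlapping groups (log2 fold change 0.11). Slc22a29, between Slc22a28 and Slc22a30, had a higher DKO mean only through DKO replicate 3. Its other DKO libraries had 5.34 to 7.91 CPM, against 6.32 to 7.93 CPM in WT. With 1 library left out its log2 fold change was as low as -0.08. DKO replicate 3 was the lowest of all libraries for Slc22a19 (7.99 CPM), Slc22a26 (2.25 CPM), Slc22a28 and Slc22a30, and the highest for Slc22a29 (16.2 CPM) and Slc22a8.

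**Figure D2:**
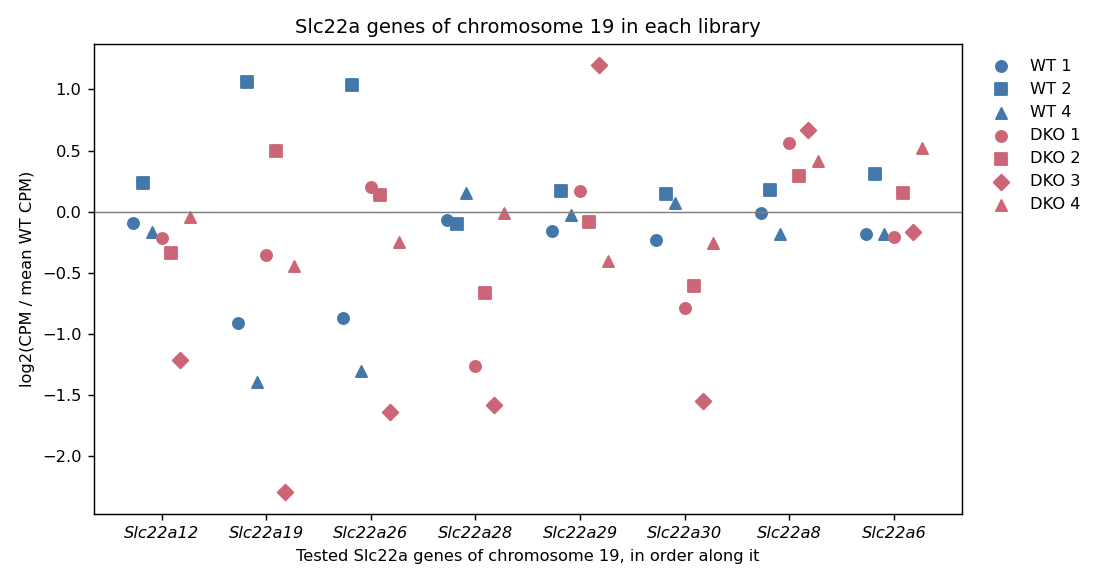
Level of each tested Slc22a gene of chromosome 19 in each library, as log2 of CPM over the mean WT CPM (y axis), in order along the chromosome (x axis). WT libraries are blue and DKO libraries red, and DKO replicate 3 (diamonds) is the lowest library for Slc22a12, Slc22a19, Slc22a26, Slc22a28 and Slc22a30 and the highest for Slc22a29 and Slc22a8.

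The organic cation carriers showed no member at an unadjusted p under 0.05. Slc22a2 (OCT2), named after its values were seen, had 255 ± 101 CPM in WT (SD, n = 3), against 242 ± 56.1 in DKO (n = 4). Slc22a3 (OCT3, a carrier of monoamines) was scarce. It had 0.570, 0.582 and 0.567 CPM in WT and 1.23, 0.892, 0.870 and 0.612 CPM in DKO. Its groups did not overlap, but it rests on 111 reads in all, its unadjusted p was 0.127 in edgeR's fit across all genes, and exons of Plg overlap it on the other strand over 420 bases.

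The carnitine and cation transporters (OCTN) all had positive fitted values, with a median log2 fold change of 0.24 and none of the 3 at an unadjusted p under 0.05. They were chosen for mention after their values were seen. Slc22a5 (OCTN2, the carnitine carrier) had 246 ± 70.9 CPM in WT (SD, n = 3), against 339 ± 123 in DKO (n = 4). Slc22a4 (OCTN1, the ergothioneine carrier) had 55.6 ± 8.73 CPM in WT (SD, n = 3), against 64.5 ± 7.57 in DKO (n = 4). Slc22a21 shares 831 bases at 98.3% identity with Slc22a5 and had 2.58 ± 0.877 CPM in WT (SD, n = 3).

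Slc47a1 (ENSMUSG00000010122, chromosome 11, 61343401 to 61378345) encodes MATE1, the apical exporter that completes cation secretion. It had 363, 582 and 284 CPM in WT and 538, 526, 478 and 427 CPM in DKO. WT replicate 2 was the highest of the 7, and the other WT libraries lay below all DKO libraries. On the log2 scale the difference was 0.26 (SE 0.24), 0.60 without WT replicate 2 (unadjusted p = 0.0132) and 0.06 without WT replicate 4. Slc47a2 (MATE2) lay under the filter, with 57 reads in 7 libraries.

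Among the remaining SLC22 members, Slc22a14 (ENSMUSG00000070280, chromosome 9, 119169455 to 119365553), best known from sperm, had the largest positive log2 fold change of the tested members. It had 0.622, 1.85 and 0.520 CPM in WT and 3.52, 7.66, 7.22 and 1.02 CPM in DKO. In 3 DKO kidneys it exceeded every WT kidney, and DKO replicate 4 lay among the WT values. The log2 fold change was 2.28 (SE 0.72, edgeR adjusted p = 0.164), on 450 reads in total. The unadjusted p of Slc22a14 was 0.0513 without WT replicate 1 and 0.0632 without WT replicate 4 in edgeR's fit across all genes. The gene spans the positions of Slc22a13 and Slc22a13b on the same strand.

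Slc22a18 (ENSMUSG00000000154, chromosome 7, 143473736 to 143499334), an imprinted gene for a polyspecific carrier, had the most reads of all members. It had 829, 1059 and 1035 CPM in WT and 942, 913, 885 and 1081 CPM in DKO. The groups overlapped and the log2 fold change was -0.03 (SE 0.17), a value that turned positive with the length and GC trend removed (0.12). Slc22a15, Slc22a17 (a receptor for lipocalin 2) and Slc22a23, noted after their values were seen, had log2 fold changes of 0.54, -0.18 and 0.24. None of these 3 reached an unadjusted p under 0.05.

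The OATP members of family 1 lie together on chromosome 6 and did not share a direction. Slco1a1 (ENSMUSG00000041698, chromosome 6, 141907282 to 141946962, 14 merged exons) encodes OATP1A1, an apical carrier of steroid conjugates known to be higher in male than in female mouse kidney. It had 160.3, 176 and 182 CPM in WT and 27.0, 27.2, 1.23 and 117 CPM in DKO. Each DKO library was below each WT library, but the DKO libraries spread from 1.23 to 117 CPM, while the WT libraries lay close together. The means were 173 ± 11.1 CPM (SD, n = 3) and 43.0 ± 50.6 CPM (SD, n = 4). Its log2 fold change was -2.002 (SE 1.16, edgeR adjusted p = 0.361). The unadjusted p of Slco1a1 was 0.136 with all libraries, 0.0228 without DKO replicate 3 (log2 fold change -1.59) and 0.0193 without DKO replicate 4 (-3.22), in edgeR's fit across all genes.

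Slco1a4 (ENSMUSG00000030237, chromosome 6, 141805440 to 141856199), a related carrier best known from the blood-brain barrier and liver, was scarce in kidney. It had 2.20 ± 1.18 CPM in WT (SD, n = 3), from 1.005 to 3.36, against 0.990 ± 0.393 in DKO (n = 4), from 0.461 to 1.31. The groups overlapped through WT replicate 2, and the log2 fold change was -1.15 (SE 0.46, edgeR adjusted p = 0.198). Without WT replicate 4 it was -0.70 (unadjusted p = 0.178), and the unadjusted p was 0.0568 without WT replicate 1, 0.0574 without DKO replicate 1 and 0.0678 without DKO replicate 3. Slco1a6 (ENSMUSG00000079262, chromosome 6, 142085761 to 142208521), a kidney OATP and the Slco member with the most reads, had 135, 159.9 and 191 CPM in WT and 152, 190.4, 173 and 200.05 CPM in DKO. These ranges overlapped (log2 fold change 0.14, SE 0.17). Slco1b2, a liver carrier, had 15 reads in the 7 libraries, of which 11 were in DKO replicate 3, 3 in DKO replicate 4, 1 in WT replicate 4 and 0 in the other 4 libraries. A count of 0 allows up to 3 counts, for counting error only.

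**Figure D3:**
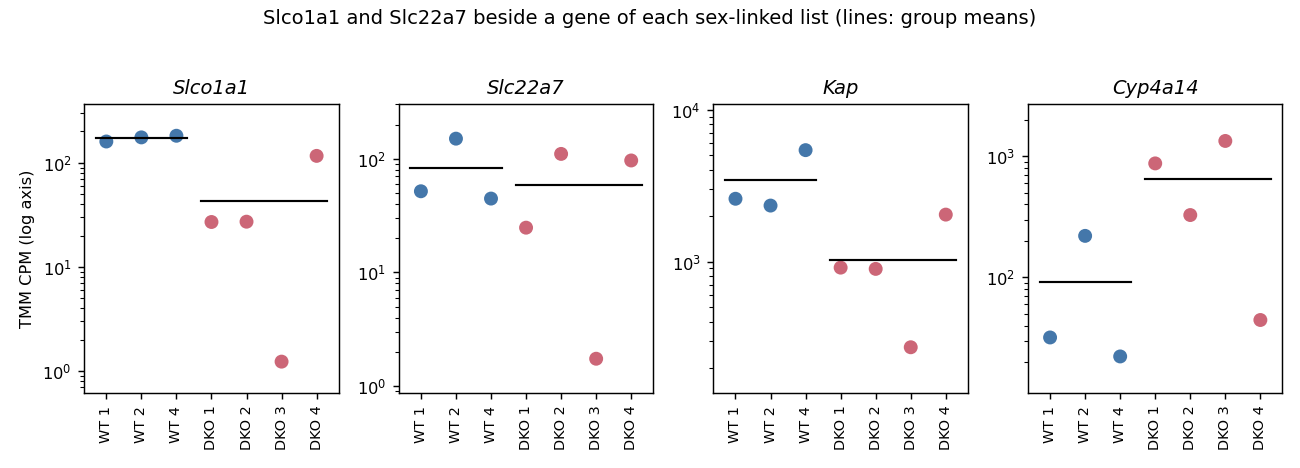
TMM CPM on a log axis (y) in each of the 7 libraries (x) for Slco1a1, Slc22a7, the androgen-responsive gene Kap and the female-higher gene Cyp4a14, with lines at the group means. DKO replicate 3 is the lowest library for Slco1a1 (1.23 CPM), Slc22a7 (1.74 CPM) and Kap (273 CPM) and the highest for Cyp4a14 (1333 CPM). Not every listed gene did so: Cyp2a4, also of the female-higher list and not drawn, was lowest in DKO replicate 3 (15.5 CPM).

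Genes listed as following sex hormones in mouse kidney were read beside Slco1a1. All animals were male, so the sex bias of the listed genes was not tested. In the list of 11 androgen-responsive genes, 0 were higher and 2 were lower at an unadjusted p under 0.05, with a median log2 fold change of -0.09. Over all genes 9.86% were higher and 11.3% lower. The 2 lower genes were Kap (kidney androgen-regulated protein) and Odc1 (ornithine decarboxylase). Kap had 2591, 2337 and 5417 CPM in WT and 912, 894, 273 and 2038 CPM in DKO. For Kap, too, DKO replicate 3 was the lowest library and DKO replicate 4 the nearest to WT. Not every gene of the list followed Kap: Cyp2e1 had 1742 CPM in DKO replicate 3, above the WT range of 866 to 1500 CPM. The fitted log2 fold change was -1.74 (SE 0.60, edgeR adjusted p = 0.180) for Kap and -1.15 (SE 0.26, edgeR adjusted p = 0.163) for Odc1.

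Of 10 genes listed as higher in female kidney, 2 were higher (9.86% of all genes) and 0 lower (11.3%) at an unadjusted p under 0.05. They were Abcc3, itself a member, and Bhmt, and the median of the list was 1.18. Cyp4a14, chosen after its values were seen, had 32.0, 220.0 and 22.3 CPM in WT and 871, 327, 1333 and 44.6 CPM in DKO. Other genes of the list went the other way in DKO replicate 3. Cyp2a4 had 15.5 CPM there, against 58.6 to 154 CPM in the other libraries, and Acsm2 had 757 against 1108 to 1750 CPM. Leaving out Acsm2, the most abundant, 5 genes were highest in DKO replicate 3 and 4 in DKO replicate 1. The summed level of the androgen list was 7888 to 9977 CPM in WT and 4519.5 to 9951 CPM in DKO, and that of the female-higher list 2645 to 4456 and 3310.4 to 5451 CPM. No gene of either list was at 0 in all libraries. A link between these lists and the level of Slco1a1 was not tested.

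The OATP members of families 2 to 6 had 3 of 5 tested genes higher in DKO at an unadjusted p under 0.05 (9.86% of all genes) and a median log2 fold change of 0.52. The count was between 2 and 4 when 1 library was left out (background 5.63% to 12.5%), and 2 with the length and GC trend removed (6.14%). Slco2b1 (ENSMUSG00000030737, chromosome 7, 99657804 to 99711340) encodes OATP2B1, a broad carrier of drugs and sulfated steroids. It had 9.23, 7.77 and 8.04 CPM in WT and 12.6, 11.6, 13.6 and 10.1 CPM in DKO, with no overlap between the groups. Its log2 fold change was 0.52 (SE 0.17, edgeR adjusted p = 0.164). Exons of Gm15635 overlap it on the other strand over 471 bases.

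Slco2a1 (ENSMUSG00000032548, chromosome 9, 102988712 to 103096002), the prostaglandin transporter, had 9.45 ± 1.43 CPM in WT (SD, n = 3), up to 10.7, against 12.6 ± 0.850 in DKO (n = 4), down to 11.5. The groups did not overlap, and the log2 fold change was 0.42 (SE 0.17, edgeR adjusted p = 0.204). Slco2a1 has 13545 bases of exon, and with the length and GC trend removed its log2 fold change was 0.09 (unadjusted p = 0.628). The unadjusted p was 0.0312 with all libraries in edgeR's fit across all genes, 0.155 without WT replicate 1, 0.0594 without DKO replicate 1 and 0.0570 without DKO replicate 3. Slco4a1 (ENSMUSG00000038963, chromosome 2, 180456245 to 180474867), a thyroid hormone carrier, had 23.9, 24.5 and 18.4 CPM in WT and 32.4, 36.0, 94.2 and 32.5 CPM in DKO. All DKO libraries were above the WT libraries, and DKO replicate 3 stood apart from the other 3. On the log2 scale the difference was 1.13 (SE 0.39, edgeR adjusted p = 0.178), and 0.61 without DKO replicate 3 (unadjusted p = 0.00595). Without WT replicate 4 its unadjusted p was 0.0876.

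Slco4c1, a kidney OATP for cardiac glycosides and uremic toxins, was singled out after its values were seen. It had 7.34 ± 7.35 CPM in WT (SD, n = 3), against 15.8 ± 6.63 in DKO (n = 4), where WT replicate 2 reached 15.8 CPM. Slco3a1, also a prostaglandin and thyroxine carrier, had 52.9 ± 8.18 CPM in WT (SD, n = 3), against 51.6 ± 8.87 in DKO (n = 4). Its log2 fold change was -0.03 and turned positive without WT replicate 2, DKO replicate 1 or DKO replicate 2.

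**Figure D4:**
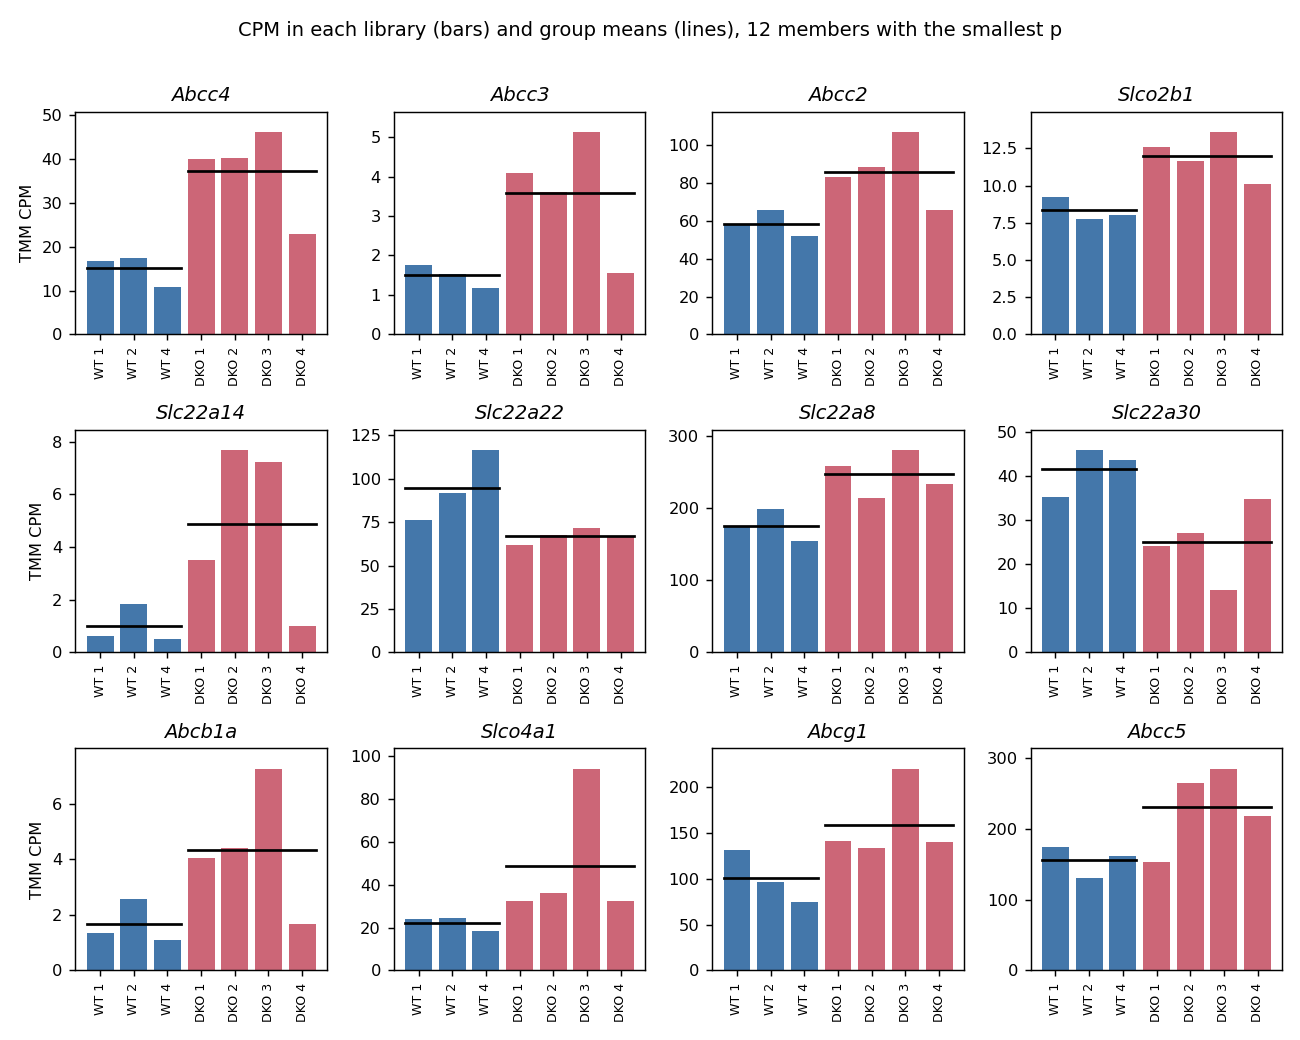
TMM CPM (y axis) in each library (bars, WT blue and DKO red) for the 12 members with the smallest unadjusted p, with black lines at the group means. DKO replicate 4 is the lowest DKO library for Abcc4, Abcc3, Abcc2, Slco2b1, Slc22a14 and Abcb1a, and DKO replicate 3 the highest DKO library for Abcc4, Abcc3, Abcc2, Slco2b1, Slc22a22, Slc22a8, Abcb1a, Slco4a1, Abcg1 and Abcc5.

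Counted by library without a model, 7 of the 49 tested members had all DKO values above all WT values and 3 had all below. The shares over all tested genes were 8.34% and 9.04%. The 7 were Abcc4, Abcg1, Slc22a3, Slc22a8, Slco2a1, Slco2b1 and Slco4a1, and the 3 were Slc22a22, Slc22a30 and Slco1a1. With fewer libraries the condition is easier to meet. The higher count was 11 without WT replicate 1 (background 14.1%), 19 without WT replicate 2 (16.6%) and 14 without DKO replicate 4 (11.9%). The lower count was 5 without DKO replicate 4 (12.2%).

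Levels can be compared between genes only per length of exon, as TMM CPM per kb. On this scale Slc22a18 led with 573 in WT and 562 in DKO, and its WT range (488 to 623) lay above that of any other member described. Among these Slc22a6 came next at 183 and 197, Slc22a12 at 142 and 108, Slc47a1 at 121 and 145, Abcg2 at 106 and 107, Slc22a2 at 103 and 97.6 and Slc22a5 at 80.1 and 110.5 CPM per kb. From Slc22a6 to Slc22a5 the WT ranges of neighbours in this order overlapped. Over 45 members with a mean of at least 1 CPM, 38 of 44 neighbour pairs overlapped in WT, and 38 of 44 in DKO. The 11 members higher at an unadjusted p under 0.05 all ranked below these 7 in WT, OAT3 (Slc22a8) among them. Slc22a8 had 44.9 and 63.1, Abcc5 14.6 and 21.6, Abcc2 6.88 and 10.1, Abcc4 2.36 and 5.85, and Abcc3 0.262 and 0.631 CPM per kb in WT and DKO.

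**Figure D5:**
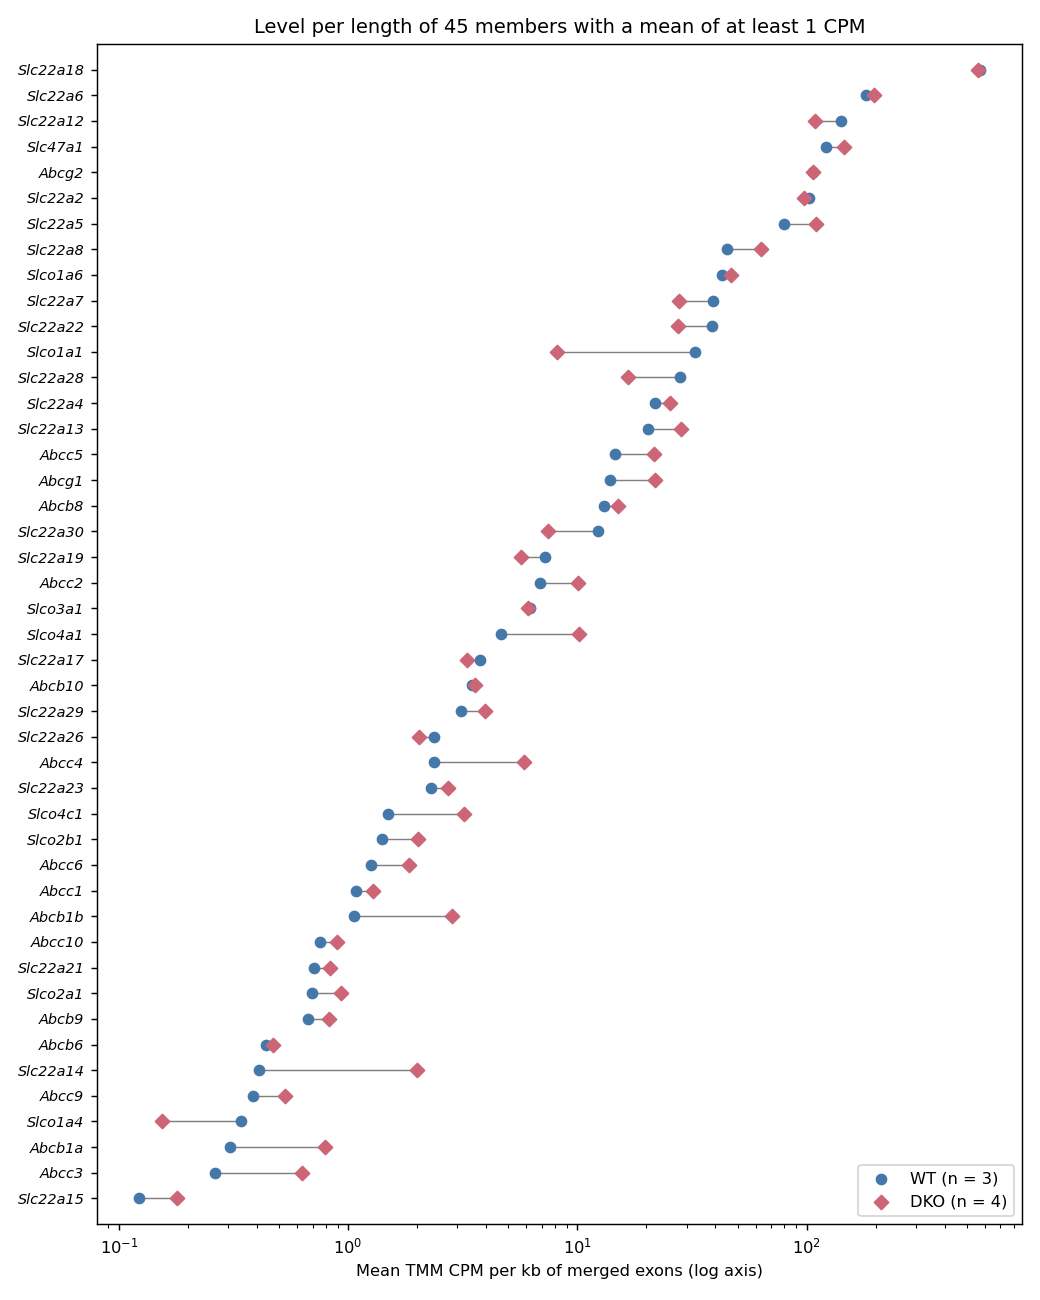
Mean TMM CPM per kb of merged exons (log x axis) in WT (circles) and DKO (diamonds) for 45 members with a mean of at least 1 CPM, ordered by the WT level. Slc22a18 leads at 573 CPM per kb in WT, and Slco1a1 moves from 32.7 in WT to 8.15 in DKO.

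Genes that drive or control organic ion transport were read from lists. Of 9 partners (the dicarboxylate carriers, the sodium pump and scaffold proteins), 1 was higher and 1 lower at an unadjusted p under 0.05. Over all genes 9.86% were higher and 11.3% lower. Slc13a2, the apical dicarboxylate carrier, had 47.9 ± 27.3 CPM in WT (SD, n = 3), against 107 ± 38.3 in DKO (n = 4). Fxyd2, the regulatory subunit of the sodium pump, had 2519.6 ± 395 CPM in WT (SD, n = 3), against 1803 ± 271 in DKO (n = 4). Their log2 fold changes were 1.16 (SE 0.39) and -0.48 (SE 0.19), with edgeR adjusted p of 0.172 and 0.198.

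Other carriers of nucleosides, bile acids, peptides and urate numbered 18 tested. At an unadjusted p under 0.05, 4 of them were higher and 1 lower (9.86% and 11.3% of all genes). The named ones were Slc28a1 (a nucleoside carrier, log2 fold change 0.43), Slc10a2 (the apical bile acid carrier, 0.58), Slc6a13 (a GABA and taurine carrier, 0.57) and Slc51b (the beta subunit of the basolateral steroid and bile acid exporter, -0.84). Of 17 tested regulators, 6 were higher and 0 lower, against a background of 9.86% higher. Among the higher ones were Ppara (log2 fold change 0.54), a lipid-sensing nuclear receptor, and Arnt (0.41), the partner of the aryl hydrocarbon receptor. Of the 3 lists together 11 genes were higher and 2 lower. The higher count was 4 without WT replicate 1 (background 7.54%), 4 without WT replicate 4 (5.63%), 7 without DKO replicate 1 (12.5%), 5 without DKO replicate 2 (6.55%), 6 without DKO replicate 3 (6.95%) and 7 with the length and GC trend removed (6.14%). The lower count ranged from 1 to 4 when 1 library was left out: 4 without WT replicate 1 (11.2%) or DKO replicate 4 (10.2%), and 1 without WT replicate 4 (4.45%), DKO replicate 2 (7%) or DKO replicate 3 (7.52%).

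Markers of the cells that carry these transporters did not separate the groups as sums, but single genes weighed heavily in them. The 12 markers of the first proximal tubule segments summed to 8710.2 to 9556 CPM in WT and 9075 to 10426 CPM in DKO. Slc34a1, higher in every DKO library than in WT, held 34.2% to 55.1% of this sum. The other 11 summed to 5732 to 6227 CPM in WT and 4074 to 6066 CPM in DKO, lowest in DKO replicate 3. Gatm weighed most in this remainder. It had 4208, 4119 and 3436 CPM in WT and 3438, 3821, 1988 and 3215 CPM in DKO replicates 1 to 4. The low sum of DKO replicate 3 therefore does not describe the 11 markers alike. Of the 12 markers, 3 were higher (Cubn, Slc34a1 and Slc7a8) and 1 lower (Pdzk1ip1) at an unadjusted p under 0.05. Over all genes 9.86% were higher and 11.3% lower. The 12 markers of the last segment summed to 3477 to 5452 CPM in WT and 3571 to 4309 CPM in DKO, with Slc5a10 higher and Cndp2 lower. Without its most abundant gene this sum was 2597 to 3765 CPM in WT and 2246 to 2750 CPM in DKO. Cndp2 weighed heavily in that remainder, with 974, 1066 and 1299 CPM in WT and 307, 387, 273 and 890 CPM in DKO. WT replicate 2 was the highest of the 7 libraries for the last-segment sum. Among 14 markers of other kidney segments, 2 were higher and 2 lower, and their sum was 5912 to 9579 CPM in WT and 4768 to 7042 CPM in DKO. The most abundant held 59.4% to 82.8% of it. The other 13 summed to 1252 to 1749 CPM in WT and 1412 to 1937 CPM in DKO.

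Markers of cells outside the tubule varied between libraries. The 8 hepatocyte genes summed to 292 to 568 CPM in WT and 196 to 493 CPM in DKO, and none of the 5 that could be tested had an unadjusted p under 0.05. One abundant gene held 34.0% to 98.3% of that sum. Without it the other 7 summed to 9.90, 20.6 and 8.37 CPM in WT and to 41.5, 8.82, 129 and 10.4 CPM in DKO replicates 1 to 4. A single gene held most of this remainder in DKO replicates 1 and 3, with 26.5 and 97.4 CPM. DKO replicate 3 stood apart and was the highest of the 7 libraries for each of the 7 genes, with 15 CPM of Alb (4.20 to 7.96 in the other libraries), 5.17 CPM of Cyp2c29 (at most 0.311) and 1.13 CPM of Ahsg (at most 0.0518). Tat had 0.614 CPM there and was at 0 in the other 6 libraries. Fgb was only just highest there, at 5.32 CPM against 5.10 CPM in DKO replicate 1. The 8 adrenal cortex genes summed to 3.65 to 6.10 and 4.44 to 7.29 CPM, with Cyp11b2 and Cyp21a1 at 0 in all 7 libraries. The 7 fat cell genes summed to 235 to 861 and 459 to 1209.5 CPM, and the 6 urothelial genes to 38.7 to 73.9 and 43.0 to 53.5 CPM, with 1 lower (Upk3a). The 8 T and B cell genes summed to 30.5 to 73.1 and 18.1 to 49.8 CPM, with 3 lower, and the 8 macrophage genes to 169 to 364 and 82.0 to 202 CPM, with 3 lower and 1 higher. Over all genes 9.86% were higher and 11.3% lower at an unadjusted p under 0.05. The part of the listed cells in the transporter levels was not tested.

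Of the 7 members below the filter, none takes part in the counts above: Slco1b2, Abcb4, Abcc8, Abcg5, Slc22a27, Slc47a2 and Slc22a13b. Slc22a13b, annotated as a pseudogene in GENCODE M21, had 74 reads and shares 681 bases at 99.3% identity with Slc22a13. A further 13 genes of these families in the annotation were outside the scaled table and had at most 4 reads in any library. Of these Abcb5, Slc22a16, Slc22a20, Slco6b1, Slco6c1 and Slco6d1 had no read in any library.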

How the data were processed

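Whole-kidney RNA of 3 WT and 4 DKO males was sequenced, and each library was treated as 1 animal because the labels number every animal separately. Per the labels' protocols the libraries came from a kit that does not mark the strand. Reads were aligned with STAR 2.5.2a, per the submitters' processing notes, which list GRCm38 (mm10) and also GRCh38 with no stated role and name edgeR, limma and DESeq2. The read counter and annotation release are not stated in the sources used here. The authors deposited raw read counts per gene, unfiltered and filtered, and a TMM-scaled signal table of CPM. The deposited signal table was used for symbols, for choosing members and for 1 alternative count. All other values were computed from the raw counts. The 24 rows that name no mouse gene held at most 0.000697% of a library's counts and were left out.

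Genes passing filterByExpr (minimum count 10, minimum total 15) were tested with edgeR 4.0.16 in R 4.3.3 (robust quasi-likelihood F test, two-sided, TMM scaling, Benjamini-Hochberg adjustment over 15394 genes). DESeq2 1.42.0, limma-voom 3.58.1, RLE scaling, no filter, a replicate block, a length and GC trend removed per library and leaving out each library were alternatives. Precision is set by the 7 libraries, of 18330929 to 24259400 counts each. A count of 0 allows up to 3 counts.

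Named members are Slco1a1, Slc22a7 and Abcc4, those with an unadjusted p under 0.05, those whose groups do not overlap, the 3 most abundant of each family in CPM and, by name only, genes with no read. Values in every library were to be given for the 12 members with the smallest p and the most abundant of each family. From the other lists came up to 4 genes with an unadjusted p under 0.05. Some named genes are not reported here, but counts over all tested genes or members include them. Other genes were chosen after their values were seen. The members and lists were chosen with earlier results of these data known. Positions and exon lengths came from GENCODE M21 on GRCm38, promoters from RefSeq on GRCm38.p6 (43 of 56 members matched), and shared sequence from blastn 2.17.0 (at least 50 bases at 98% identity).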

Additional observations from a re-analysis of the deposited data

Results flagged for a closer look

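In the DKO group, 49 members were examined for a library far from the other 3, and 3 were found. Chance marks about 1 in 20 groups in this way. Slco4a1 had 94.2 CPM in DKO replicate 3, the highest DKO library, against 32.4 to 36.0 CPM in the others. Abcg1 had 220.4 CPM in DKO replicate 3, also the highest, against 134 to 141 CPM. Abcc6 had 7.66 CPM in DKO replicate 4, the lowest, against 11.1 to 11.8 CPM.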

How the results depend on the processing

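The number of members past an adjusted p under 0.05 was 0 with edgeR, 3 with DESeq2, 1 with edgeR and no low-count filter and 0 in every other fit, including all fits that left out 1 library. Members higher at an unadjusted p under 0.05 numbered 11, and 7 with the length and GC trend removed, with or without the replicate block. The lower ones numbered 4, and 2 in both of these fits. Leaving out 1 library gave 7 to 16 higher and 1 to 5 lower. For partners, other carriers and regulators the higher count was 11, 7 in both length and GC fits, and 4 to 16 with 1 library left out. Their lower count was 2, 1 with the replicate block, and 1 to 4 with 1 library left out. Members with no overlap numbered 7 higher and 3 lower, and 7 to 19 and 3 to 5 with 1 library left out. With untested members added, role medians moved from 0.01 to 0.34 for Abcg, from -1.15 to -0.49 for OATP family 1 and from 0.26 to 0.028 for MATE.

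Of 27 tested named members, 21 kept their direction in all alternatives. Of 376 values, 353 kept both direction and side of the adjusted p threshold of 0.05, while 19 reversed. No member was under that threshold in the main fit, so keeping its side says little. The highest unadjusted p over the alternative fits was 0.732 for Slco2a1, 0.507 for Abcc5, 0.257 for Abcc2 and 0.162 for Abcg1. It stayed under 0.05 for Abcc4 (0.00194), Abcc3 (0.0336) and Slc22a30 (0.0486). Abcg2 was 0.01, -0.0024 with DESeq2, -0.0051 with RLE scaling, -0.10 with the trend removed, -0.036 with that and the block, and between -0.10 and 0.22 with 1 library left out. Slc22a18 was -0.03, 0.011 with the replicate block, 0.12 with the trend removed, 0.14 with both, and between -0.15 and 0.023 with 1 library left out. Other named members reversed only with 1 library left out. Ranges over these fits were -1.43 to 0.25 for Abcg3 (highest without WT replicate 4), -0.997 to 0.27 for Slc22a7 (WT replicate 2), -0.14 to 0.080 for Slco3a1 (WT replicate 2) and -0.065 to 0.28 for Slc22a6 (lowest without DKO replicate 4). The cause was not tested.

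The replicate numbers were not taken as pairs: deviations of same-numbered libraries correlated at -0.133, 0.164 and 0.135. The block left 10 members higher and 4 lower at an unadjusted p under 0.05, and 0 past the adjusted threshold. Not every sample correlated best with its own number. Depth limits the members under the filter and those of few reads, such as Slc22a3 with 111.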
